A study of Danio rerio with 19 samples.

Results

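The genes described here were chosen as ones that build or mark the larval skin. They comprise 22 keratins, 9 plakin and desmosome genes and 4 genes of tight junctions and epithelial adhesion. The rest are TP63, 4 annexin A1 genes and 3 secreted or calcium-binding genes. Together they are 43 of the 32020 gene IDs counted. Some, krt8 and the krt18 genes among them, are known from simple epithelia as well as skin. Every symbol that begins with krt (20 IDs, krtcap genes left out) was taken, plus 24 names chosen for the skin, among them the type I keratins cyt1 and cyt1l. A name with no symbol of its own was matched after its final paralog letter was dropped, so that 2 IDs carry DSP and 2 carry JUP, and which of the zebrafish a and b copies each one is was not assigned. The name evplb matched no ID and is not analysed here.

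Larval zebrafish skin is a thin sheet of superficial cells, the periderm, over basal keratinocytes that rest on a basement membrane. Keratins form the intermediate filaments of both layers, and desmosomes join these filaments between neighbouring cells through desmoplakin, plakophilins, plakoglobin and the desmosomal cadherins. Plakins such as envoplakin and periplakin link keratins to the cell edge, claudins seal the tight junctions, and annexin A1 proteins bind membrane phospholipids in the presence of calcium. Annexin A1 is known in mammals as an anti-inflammatory protein that is abundant in epithelia.

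The study profiled single heads of larval zebrafish, each with its eyes taken off before RNA extraction, by bulk RNA-seq of 19 libraries. One line, scn1lab, is mutant (allele Δ44) for a sodium channel gene of the voltage-gated kind. It gave 3 libraries of homozygotes (HOM), 3 of heterozygotes (HET) and 3 of wild types (WT). The other, dyrk1a, carries deletions in both zebrafish copies of a protein kinase gene (dyrk1aaΔ77 and dyrk1abΔ8) and gave 4 HOM, 3 HET and 3 WT libraries. All groups of a line, WT included, came from crosses between heterozygous carriers, and the larvae were matched as siblings or cousins. The labels give no age, call the tissue whole brain, and do not say which libraries had which of the RNA kits they name.

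Whole heads include skin, and in every library the 22 keratins held between 2.21% and 7.96% of all counts. Each library had between 15.1 and 29.9 M counts in total. No targeted gene was lost from the HOM libraries: scn1lab had 5.74 to 14.7 counts per 1 M (CPM) in scn1lab HOM, 4.9 to 14.5 CPM in scn1lab HET heads and 13.9 to 16.6 CPM in scn1lab WT. The DYRK1A gene ENSDARG00000023814 had 43.4 to 65.1 CPM in dyrk1a HOM against 38.2 to 42.1 CPM in dyrk1a WT. There HOM lay wholly above WT after the scaling given below, but overlapped it with library totals alone. The DYRK1A gene ENSDARG00000063570 had 7.67 to 26.8 CPM in dyrk1a HOM against 9.61 to 19.2 CPM in dyrk1a WT. Small deletions need not lower a count, so these values check the labels only weakly. CPM is given here after trimmed-mean (TMM) scaling within a line, and levels are compared within a line only.

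Taken as a share of all counts, with no scaling, the 43 genes did not separate HOM from WT heads in either line. In scn1lab they held 7.02%, 8.71% and 4.1% of counts in the HOM heads, 7.72%, 3.54% and 3.43% in the HET heads, and 6.03%, 3.54% and 5.65% in the WT heads. Group means were 6.61 ± 2.33% for HOM, 4.9 ± 2.44% for HET and 5.07 ± 1.34% for WT (SD, n = 3 each). In the dyrk1a line the share averaged 3.82 ± 1.09% in HOM (n = 4), 4.4 ± 0.989% in HET (n = 3) and 4.28 ± 0.139% in WT (n = 3), again with HOM on both sides of WT. One gene, krt4, a keratin of the superficial skin cells, led in all 19 libraries and made up 29.5% to 58.9% of the counts of the 43 genes. Fewer skin cells in a head and less keratin RNA per cell cannot be told apart in bulk counts.

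**Figure D1:**
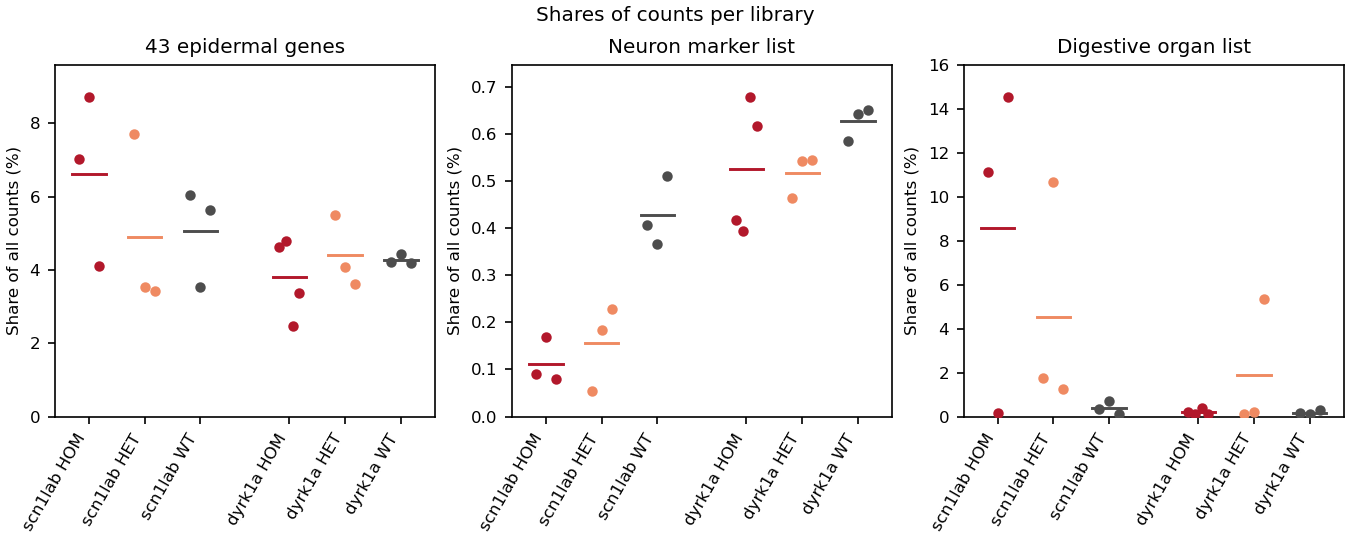
Share of all counts (%) per library for the 43 epidermal genes, a neuron marker list and a digestive organ list; points are libraries and bars are group means. The epidermal share overlaps between HOM and WT in both lines, while the neuron share of scn1lab HOM (0.079% to 0.168%) lies below that of scn1lab WT (0.367% to 0.51%).

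Marker shares of other tissues differed between scn1lab libraries, although 0 genes of the neuron and digestive lists passed in edgeR for HOM against WT, and the part of these shares in the results below was not tested. The neuron list (27 genes) took 0.079% to 0.168% of counts in HOM, 0.0546% to 0.229% in HET and 0.367% to 0.51% in WT, with dlg4b at 0 in HOM and HET. The digestive organ list (48 genes) took 0.158% to 14.6% of counts in HOM, 1.25% to 10.7% in HET and 0.132% to 0.702% in WT, with hp at 0 in HOM and HET and apoa4a at 0 in WT. It passed 2% in scn1lab HOM1, HOM3 and HET2 and in dyrk1a HET4. TMM factors, which raise or lower the library size used for CPM, spanned 0.752 to 1.15 for scn1lab HOM, 0.831 to 0.915 for HET and 1.2 to 1.35 for WT. This scaling matters for each direction given below: with library totals alone the median log2 change over all genes tested moved by -0.46 for scn1lab HOM against WT and by -0.53 for HET against WT. In dyrk1a it moved by -0.05 for HOM against WT and by -0.13 for HET against WT.

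In scn1lab HOM heads most of these skin genes lay above WT, and none passed the test across all genes. Among members with counts in every library the largest difference was that of anxa1c, with a log2 change of 2.55, while its neighbour anxa1b lay below WT. Of the 43 genes, all tested, 26 had every HOM library above every WT library and 2 had every HOM library below (of all 21466 genes tested, 18.3% lay above and 18.2% below). In edgeR's quasi-likelihood test, 0 of the 43 passed an adjusted p of 0.05 (0.00466% of all genes passed, which is 1 gene), 22 were higher and 2 lower at an unadjusted p under 0.05 (9.8% and 9.1% of all genes), and 41 had a positive log2 change (54.6% of all genes). The median log2 change was 0.95 for the 43 genes and 0.09 for all genes. DESeq2 on the same libraries called 11 of the 43 higher and 2 lower (3.58% and 3.75% of all genes), and edgeR fitted to HOM and WT alone called 18 higher and 2 lower (4.29% and 5.75% of its 20684 genes). Of these, 12 genes were called by both.

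With library totals in place of TMM fewer members stood apart from WT. The median of the 43 genes was then 0.5 and that of all genes -0.37, 34 of 43 were positive against 32.1% of all genes, 6 had every HOM library above WT (5.15% of all genes) and 2 every HOM library below (30.2%). The 6 were evpla, both DSP genes, anxa1c, icn and icn2, and the 2 were the JUP gene ENSDARG00000059067 and anxa1b. The distance between the median of the 43 genes and that of all genes was 0.86 under both scalings. A change of scaling moves all genes of a library alike, so this distance could hardly differ and tests nothing. Signs turned for 7 genes, krt97, krt91, krt8, krt5, krt1-19e, cldnb and krt95, whose log2 changes with TMM were at most 0.57.

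**Figure D2:**
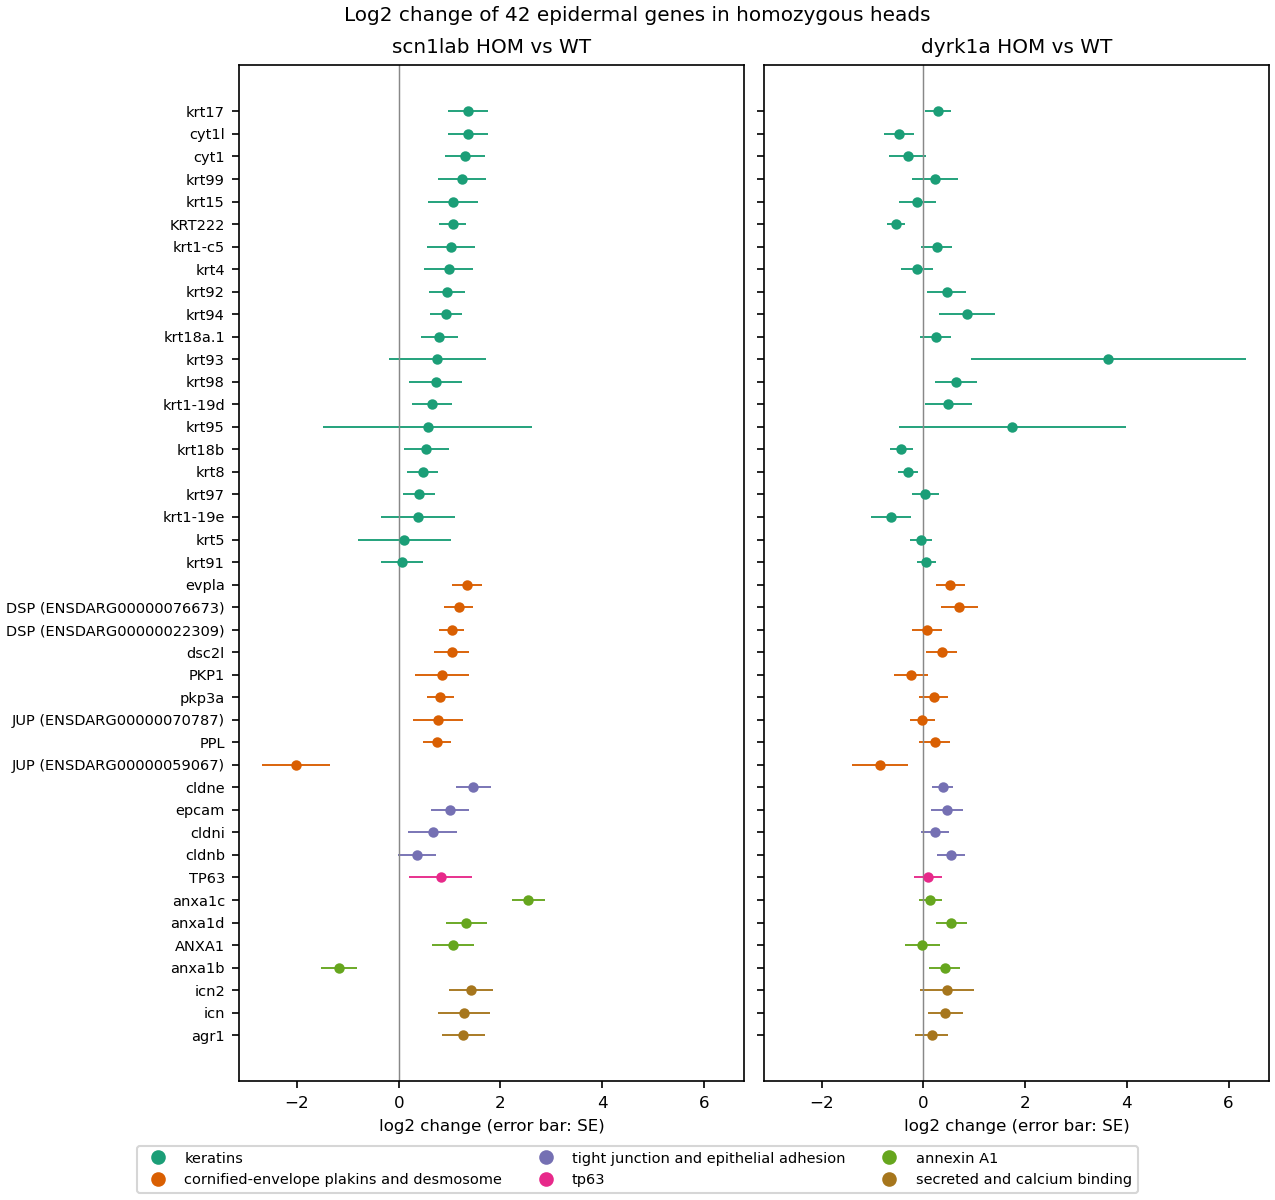
Log2 change of HOM against WT in the scn1lab line (left) and the dyrk1a line (right) for 42 of the 43 genes, coloured by role; error bars are standard errors, and krt18a.2, at 0 in scn1lab WT and not tested in dyrk1a, is left out. Most scn1lab values lie right of 0 with anxa1c highest at 2.55, and anxa1b and 1 JUP gene lie left of it.

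Among the keratins, 11 of 22 lay wholly above WT in scn1lab HOM with TMM and the other 11 overlapped it. Of all genes tested, 18.3% lay above and 18.2% below. With library totals none of the keratins, krt4 included, stood apart from WT (5.15% of all genes lay above and 30.2% below). The most abundant, krt4, had 45500, 38400 and 28900 CPM in HOM heads, 37900, 23800 and 12200 CPM in HET heads, and 24600, 12300 and 20300 CPM in WT heads. Its log2 change between HOM and WT was 0.98 (SE 0.48, adjusted p = 0.307). All HOM libraries of krt4 were above all WT libraries, while HET spanned both.

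The type I keratin genes cyt1, cyt1l and krt17, expressed in superficial skin, had the largest log2 changes among the abundant keratins. In HOM cyt1 had 3210, 3470 and 1840 CPM, in HET 2650, 1330 and 2400 CPM, and in WT 1350, 841 and 1250 CPM. Its log2 change was 1.31 (SE 0.39, adjusted p = 0.167), and the values of cyt1l and krt17 were 1.36 each (SE 0.39 each, adjusted p = 0.165 each). HOM lay wholly above WT in all 3 genes with TMM and overlapped it with library totals. HOM overlapped HET in all 3, and HET overlapped WT in cyt1 and cyt1l. These genes lie side by side: in the RefSeq annotation (assembly GRCz12tu) krt1-19d, krt1-19e, krt92, cyt1l, cyt1, krt17 and krt91 form a run of 7 neighbours. How the counting divided reads that fit more than 1 such copy is not given in the sources used here, so the counts of neighbouring keratins are uncertain to that extent.

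Not every member of that run was higher. For krt91 the levels were 1620, 2040 and 1390 CPM in HOM heads, 2450, 954 and 2950 CPM in HET heads, and 1860, 1410 and 1590 CPM in WT heads, with a log2 change of 0.06 (SE 0.41, adjusted p = 0.958). The basal-layer keratin krt1-19e had 5990, 4730 and 4030 CPM in HOM heads, 10100, 1730 and 1640 CPM in HET heads, and 6640, 2070 and 2630 CPM in WT heads. Its groups overlapped, with a log2 change of 0.38 (SE 0.73, adjusted p = 0.817), and its ratio to cyt1 within a library was 1.87, 1.36 and 2.19 in HOM, 3.81, 1.3 and 0.683 in HET, and 4.92, 2.46 and 2.1 in WT. For krt1-19d the levels were 2230, 2840 and 1440 CPM in HOM heads, 2260, 1220 and 2900 CPM in HET heads, and 1520, 1230 and 1410 CPM in WT heads, also overlapping.

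The keratin krt5 varied more between heads of 1 genotype than between genotypes. It had 6150, 6680 and 2730 CPM in HOM heads, 12200, 979 and 946 CPM in HET heads, and 4440, 3530 and 6470 CPM in WT heads. In HET its highest library was 12.9 times its lowest. The log2 change between HOM and WT was 0.11 (SE 0.91, adjusted p = 0.961). KRT222, a short keratin-like gene, was steadier at 43.3, 50.7 and 42.9 CPM in HOM heads, 31, 20.9 and 17.9 CPM in HET heads, and 18.5, 20 and 27.2 CPM in WT heads, a log2 change of 1.06 (SE 0.27, adjusted p = 0.16). Every HOM library of KRT222 stood above every HET and WT library with TMM. With library totals HOM still stood above HET and overlapped WT.

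With TMM the other keratins split in the same way. Of those not yet described, krt97, krt99, krt92, krt15, krt94 and krt8 lay wholly above WT in scn1lab HOM, and krt18a.1, krt18b, krt1-c5, krt98, krt93 and krt95 overlapped it. A run of 5 neighbours in the annotation holds krt93, krt94, krt98, krt15 and krt99, of which krt15 had 896, 1160 and 674 CPM in HOM heads, 888, 509 and 2040 CPM in HET heads, and 521, 329 and 459 CPM in WT heads. Its log2 change was 1.06 (SE 0.49, adjusted p = 0.274). Keratins 8 and 18 are known from simple epithelia as well as skin, and krt8 had 978, 738 and 1010 CPM in HOM heads, 1460, 1060 and 801 CPM in HET heads, and 689, 694 and 589 CPM in WT heads. Its log2 change was 0.47 (SE 0.3, adjusted p = 0.421) and turned to -0.02 with library totals.

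Some keratins had libraries without a single count: krt18a.2 in 15 of the 19 libraries, krt95 in 9 and krt93 in 4. In the scn1lab line krt18a.2 had 1.49, 0 and 45.8 CPM in HOM and 0 in all 3 WT libraries. Its HOM mean was at least 162-fold higher than a floor of 3 counts per WT library, and that mean comes mostly from HOM3, which held 797 of the gene's counts, against 24 in HOM1 and 0 in HOM2. HOM2 was level with WT, so the groups overlapped. DESeq2 counted krt18a.2 among its 11 calls above. Besides HOM1 and HOM3, the gene had counts only in scn1lab HET2 (41) and dyrk1a HET4 (30). The libraries with counts of krt18a.2 were the 4 with over 2% digestive counts. The part of that digestive share in this gene's counts was not tested.

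**Figure D3:**
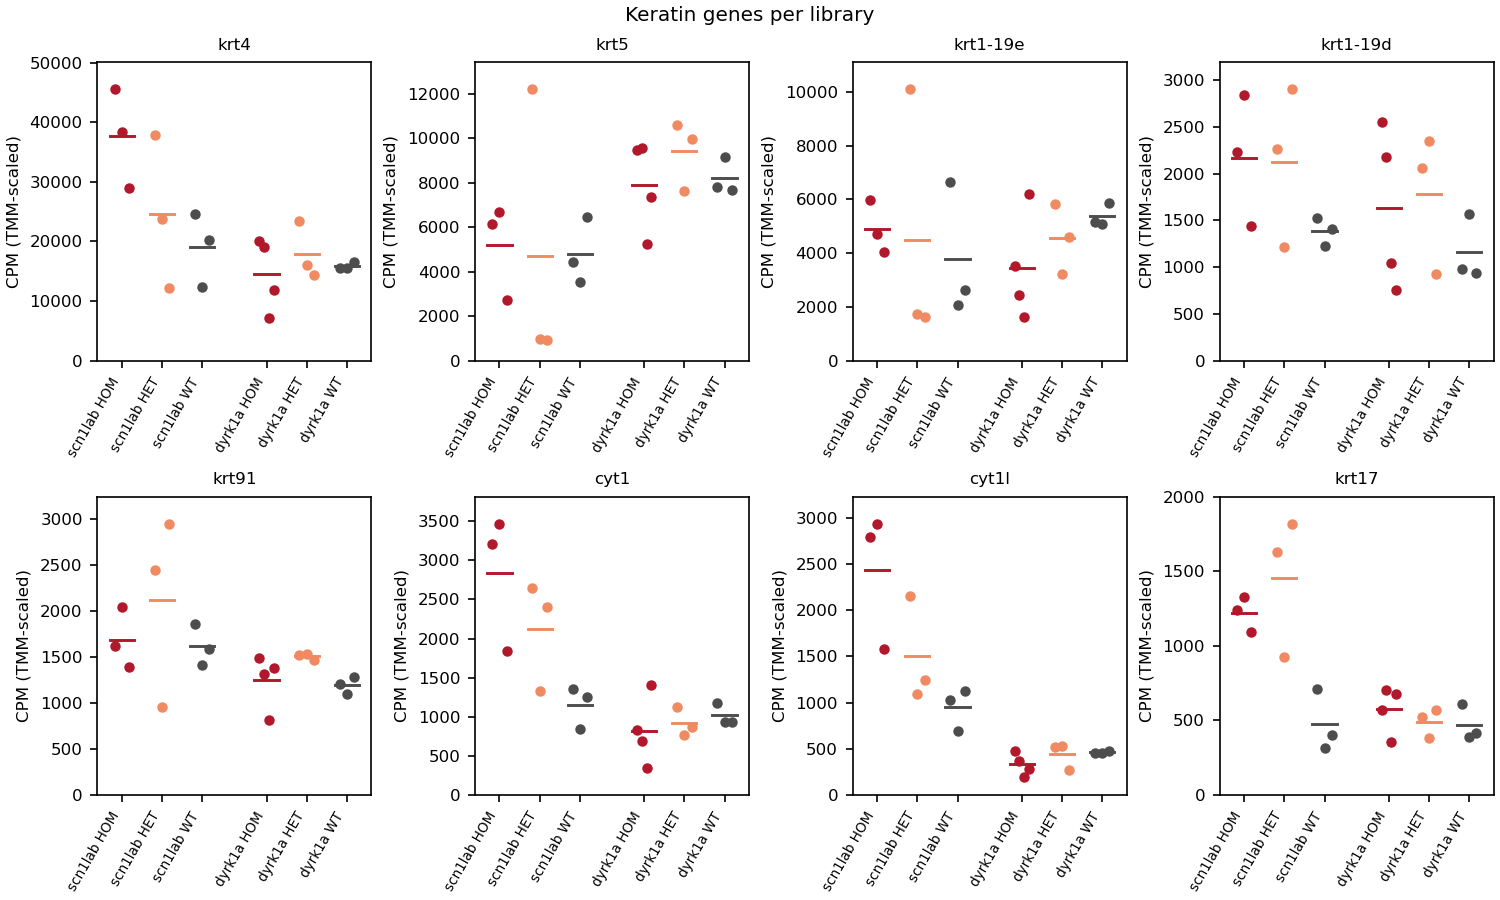
Levels of 8 keratin genes (TMM-scaled CPM, axes from 0) per library; points are libraries, bars are group means, and each panel has its own axis. In scn1lab, cyt1, cyt1l and krt17 have HOM above WT, while krt5, krt1-19e and krt91 overlap.

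Of the 9 plakin and desmosome genes, 7 lay wholly above WT in scn1lab HOM with TMM, 1 wholly below, and PKP1 overlapped. Of all genes tested, 18.3% lay above and 18.2% below. With library totals only evpla and both DSP genes stayed above, and the JUP gene ENSDARG00000059067 below. PPL, dsc2l, pkp3a and the JUP gene ENSDARG00000070787 then overlapped WT (5.15% of all genes lay above and 30.2% below). Envoplakin, evpla (ENSDARG00000019808), had 97, 120 and 76.6 CPM in HOM heads, 85.9, 61.6 and 121 CPM in HET heads, and 46.3, 33.2 and 36.8 CPM in WT heads. Its log2 change was 1.34 (SE 0.3, adjusted p = 0.156), and HOM and WT stayed apart with library totals as well. Periplakin, PPL, had 183, 265 and 156 CPM in HOM heads, 200, 146 and 218 CPM in HET heads, and 123, 116 and 119 CPM in WT heads, a log2 change of 0.75 (SE 0.27, adjusted p = 0.203).

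Both desmoplakin genes, which tie keratin filaments to the desmosome, were tight within groups. DSP ENSDARG00000022309 had 25.3, 30.2 and 32.8 CPM in HOM heads, 26, 22.8 and 34.4 CPM in HET heads, and 14.7, 13.7 and 14.6 CPM in WT heads. DSP ENSDARG00000076673 had 12.4, 15.8 and 15.4 CPM in HOM heads, 18.8, 11.8 and 13.5 CPM in HET heads, and 6.94, 6.12 and 6.09 CPM in WT heads. For HOM against WT their log2 changes came to 1.04 (SE 0.24) and 1.18 (SE 0.28), each with an adjusted p of 0.156, and HOM and HET both stood wholly above WT under either scaling.

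The desmosomal cadherin dsc2l had 40.7, 54.9 and 58 CPM in HOM heads, 82.8, 41.2 and 63.3 CPM in HET heads, and 28.1, 15 and 31.7 CPM in WT heads. The plakophilin pkp3a had 81, 91.4 and 87.1 CPM in HOM heads, 112, 61.3 and 97 CPM in HET heads, and 48, 40.3 and 58.3 CPM in WT heads. HOM exceeded WT by a log2 change of 1.04 for dsc2l (SE 0.35, adjusted p = 0.189) and 0.82 for pkp3a (SE 0.27, adjusted p = 0.181). HOM and HET of both genes lay above WT with TMM.

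The log2 changes of the plakoglobin genes differed in sign. JUP ENSDARG00000070787 had 202, 225 and 195 CPM in HOM heads, 220, 135 and 39.6 CPM in HET heads, and 129, 103 and 131 CPM in WT heads, a log2 change of 0.78 (SE 0.49, adjusted p = 0.413). JUP ENSDARG00000059067, the scarcer, had 1.24, 2.24 and 1.5 CPM in HOM heads, 2.34, 6.9 and 1.04 CPM in HET heads, and 5.17, 7.36 and 7.74 CPM in WT heads, a log2 change of -2.02 (SE 0.66, adjusted p = 0.181). Plakoglobin is also part of adherens junctions, where it binds classical cadherins. The plakophilin PKP1 had 76.9, 71 and 29.7 CPM in HOM heads, 62.3, 28.2 and 13.8 CPM in HET heads, and 31.4, 25.9 and 41.1 CPM in WT heads.

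**Figure D4:**
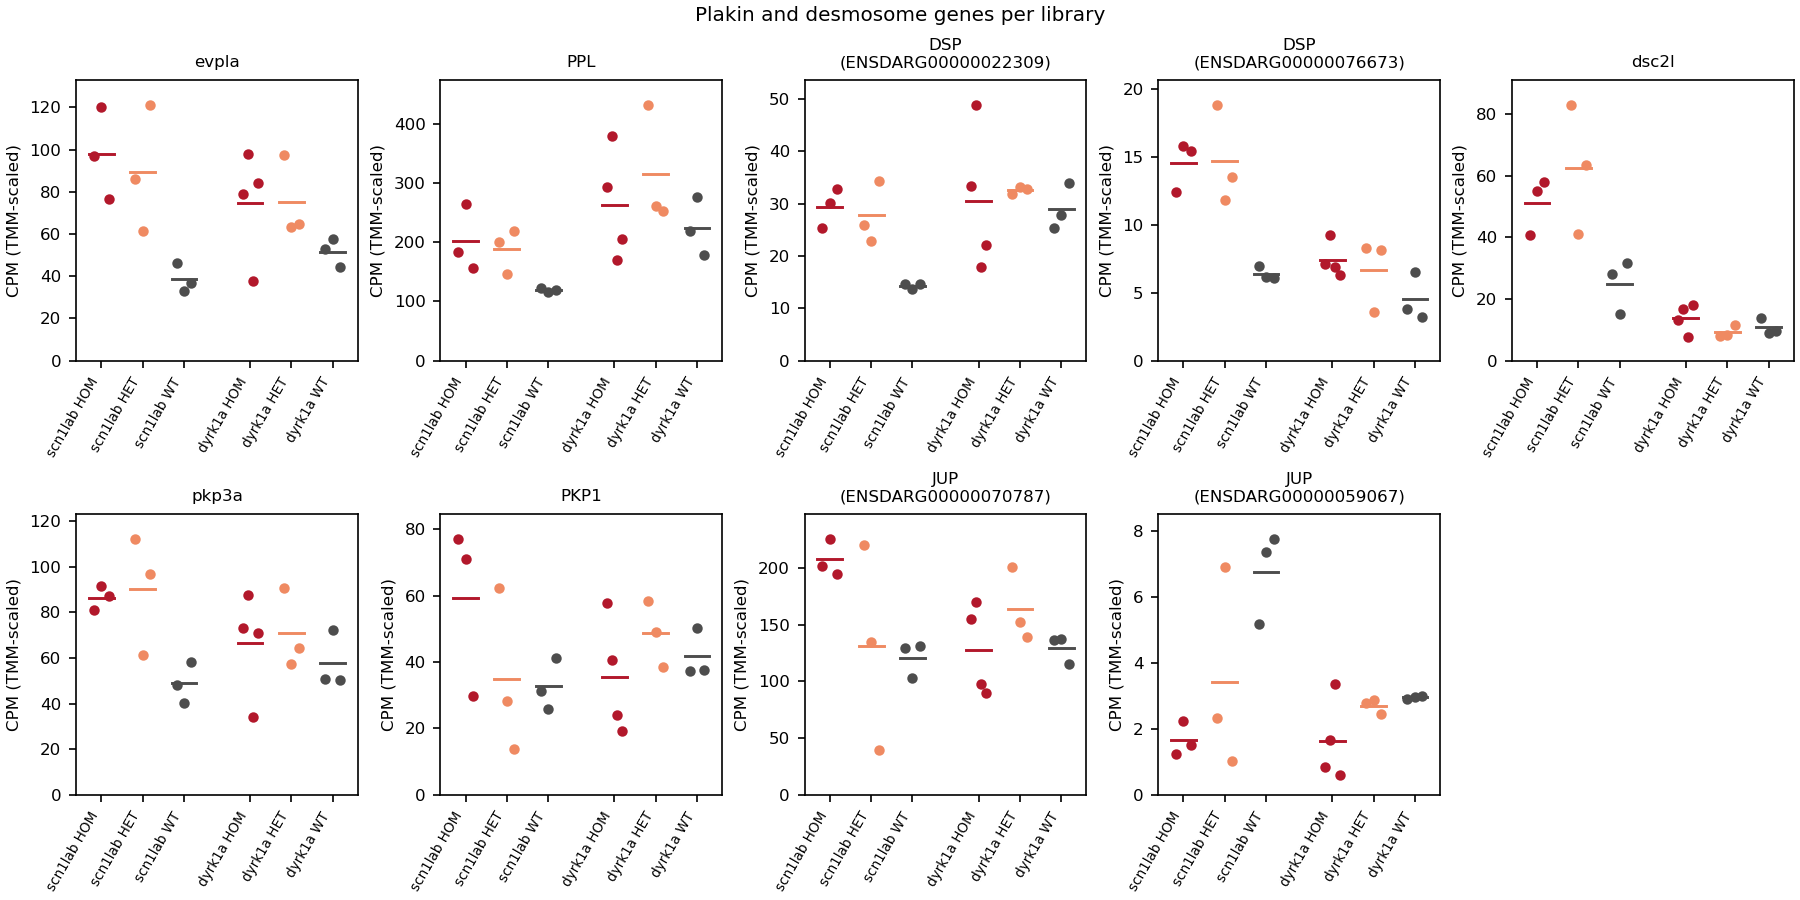
Levels of the 9 plakin and desmosome genes (TMM-scaled CPM, axes from 0) per library; points are libraries and bars are group means. In scn1lab the HOM points of 7 genes lie above all WT points, PKP1 overlaps, and JUP ENSDARG00000059067 lies below.

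Of the tight junction and adhesion genes, cldne and epcam lay wholly above WT in scn1lab HOM with TMM, and cldni and cldnb overlapped it. Of all genes tested, 18.3% lay above WT. With library totals cldne and epcam overlapped WT as well. The claudin cldne had 435, 357 and 213 CPM in HOM heads, 238, 169 and 276 CPM in HET heads, and 147, 120 and 94.5 CPM in WT heads, a log2 change of 1.47 (SE 0.34, adjusted p = 0.156). The epithelial adhesion molecule epcam had 229, 215 and 152 CPM in HOM heads, 215, 69 and 148 CPM in HET heads, and 113, 93.3 and 89.8 CPM in WT heads. Its log2 change was 1.01 (SE 0.38, adjusted p = 0.215), and those of cldni and cldnb were 0.67 and 0.36 (SE 0.48 and 0.38).

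The claudin cldni had 894, 1040 and 744 CPM in HOM heads, 950, 231 and 445 CPM in HET heads, and 768, 448 and 470 CPM in WT heads. For cldnb the values were 265, 217 and 198 CPM in HOM heads, 251, 88.7 and 179 CPM in HET heads, and 233, 128 and 171 CPM in WT heads. TP63, the transcription factor of basal keratinocytes, had 80.5, 129 and 50.8 CPM in HOM heads, 95.5, 19.1 and 19.2 CPM in HET heads, and 53.7, 41.1 and 52.2 CPM in WT heads. Its HOM libraries overlapped WT by the lowest of them, HOM3, with a log2 change of 0.83 (SE 0.62, adjusted p = 0.493).

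The 4 annexin A1 genes gave 1 of the 2 negative differences in scn1lab HOM and, krt18a.2 left aside, the largest positive one. The gene anxa1c (ENSDARG00000104359) had 683, 692 and 385 CPM in HOM heads, 218, 182 and 309 CPM in HET heads, and 93.2, 101 and 107 CPM in WT heads. Its 3 genotypes did not overlap, with HET between HOM and WT. The log2 change between HOM and WT was 2.55 (SE 0.33, adjusted p = 0.0862 in edgeR's quasi-likelihood test). It ranged from 2.13 to 2.81 over 19 fits and passed in 4 of them: DESeq2 (adjusted p = 4.21e-09), HOM and WT alone (adjusted p = 0.0188), and edgeR without scn1lab HET1 (adjusted p = 0.0416) or without scn1lab HET3 (adjusted p = 0.0402).

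By contrast anxa1b (ENSDARG00000100095) had 45, 50.1 and 36.5 CPM in HOM heads, 154, 139 and 333 CPM in HET heads, and 108, 84.8 and 103 CPM in WT heads. HOM lay below both other groups and HET above both. The log2 change between HOM and WT was -1.17 (SE 0.35, adjusted p = 0.167), and that between HOM and HET was -2.25 (SE 0.36, adjusted p = 0.855). With library totals HOM still lay below WT and below HET, while HET and WT overlapped.

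A ratio of anxa1c to anxa1b counts within a library does not depend on scaling. It was 15.2, 13.8 and 10.5 in scn1lab HOM, 1.42, 1.31 and 0.928 in scn1lab HET, and 0.864, 1.19 and 1.04 in scn1lab WT. In dyrk1a it was 2.15, 2.77, 3.72 and 1.3 in HOM, 2.97, 1.95 and 2.53 in HET, and 2.67, 2.92 and 2.34 in WT. The lowest scn1lab HOM ratio was above that of every other library of the study, and scn1lab HET and WT overlapped. This ratio was chosen after its values were seen, and it shows unequal change of the pair without saying how far either changed. Since anxa1d, anxa1c and anxa1b form a run of 3 neighbours in the annotation, reads shared between them could affect it.

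The remaining annexin A1 genes lay above WT in scn1lab HOM, as anxa1c did. ANXA1 (ENSDARG00000026726), the only ID of that symbol, had 658, 771 and 368 CPM in HOM heads, 642, 218 and 430 CPM in HET heads, and 312, 256 and 285 CPM in WT heads. For anxa1d the means were 46.3 ± 16.2 CPM for HOM, 40.5 ± 20.5 CPM for HET and 18.4 ± 3.53 CPM for WT (SD, n = 3 each), and the lowest HOM library had 28.1 CPM against 20.8 CPM in the highest WT library. HOM differed from WT by a log2 change of 1.07 for ANXA1 (SE 0.42, adjusted p = 0.221) and 1.33 for anxa1d (SE 0.4, adjusted p = 0.168), and all HOM libraries of both lay above WT with TMM.

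**Figure D5:**
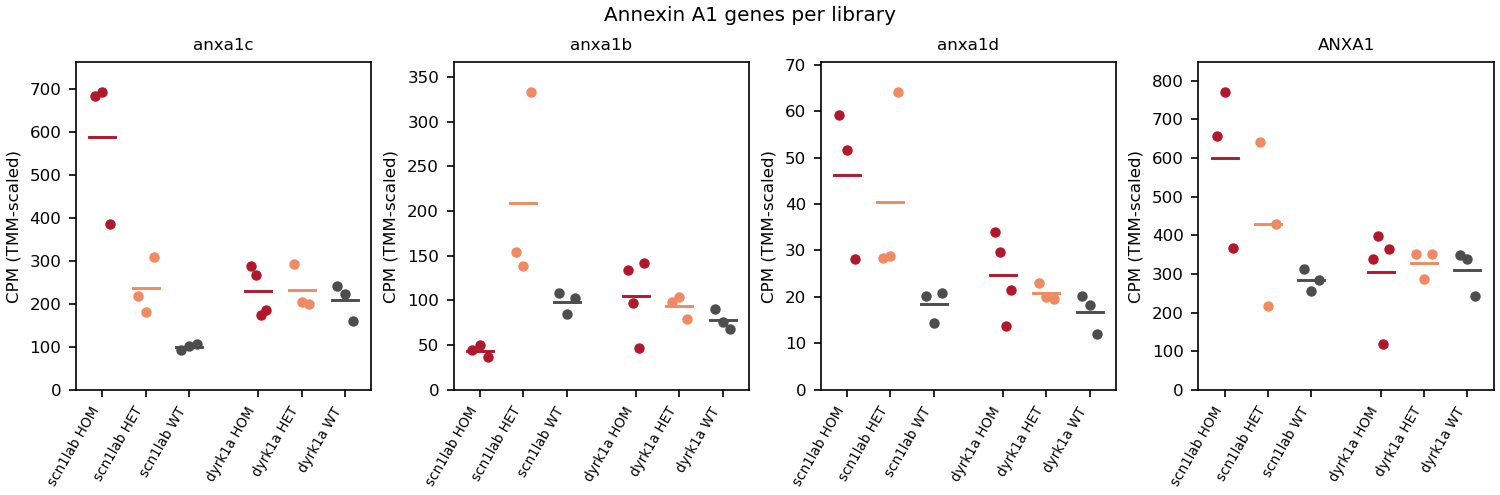
Levels of the 4 annexin A1 genes (TMM-scaled CPM, axes from 0) per library; points are libraries and bars are group means. In scn1lab, anxa1c is highest in HOM (385 to 692 CPM) and lowest in WT (93.2 to 107 CPM), and anxa1b is lowest in HOM (36.5 to 50.1 CPM).

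All 3 secreted or calcium-binding genes lay wholly above WT in scn1lab HOM with TMM, as did 18.3% of all genes. The ictacalcins icn and icn2 encode small calcium-binding proteins of the S100 family, and agr1 belongs to the anterior gradient family of secreted proteins. For icn the levels were 1080, 954 and 730 CPM in HOM heads, 971, 517 and 2420 CPM in HET heads, and 442, 409 and 290 CPM in WT heads. For icn2 they were 1230, 924 and 783 CPM in HOM heads, 721, 531 and 1460 CPM in HET heads, and 468, 240 and 389 CPM in WT heads. Both kept HOM above WT with library totals, and their log2 changes with TMM were 1.28 (SE 0.51, adjusted p = 0.23) for icn and 1.42 (SE 0.43, adjusted p = 0.168) for icn2. The gene agr1 had 303, 271 and 166 CPM in HOM heads, 290, 101 and 149 CPM in HET heads, and 131, 78.7 and 98.4 CPM in WT heads, a log2 change of 1.27 (SE 0.42, adjusted p = 0.182). With library totals HOM of agr1 overlapped WT.

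Skin genes varied between heads of 1 genotype, and the spread over all genes is not given here. Over the members with counts in every library of a group, the highest library was a median 1.61 times the lowest in scn1lab HOM, 2.4 times in HET and 1.54 times in WT. Among the HOM libraries, HOM3 was the lowest for 30 of the 43 members, anxa1c, cyt1, cldne and icn among them. It also had the highest digestive share (14.6%) and the lowest TMM factor (0.752). Without the libraries above 2% digestive counts, where HOM2 stands alone for HOM, the median log2 change was 1.13, a value that rests on 1 HOM library. With that share as a covariate the median was 1.08 and 0 members passed in edgeR.

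In scn1lab HET heads, compared with the same 3 WT libraries, fewer skin genes stood apart from WT. Of the 43 genes, 18 lay wholly above WT and 0 wholly below (9.86% and 10.9% of all genes tested), with a median log2 change of 0.69 against 0.06 for all genes. In edgeR 0 members passed (0% of all genes), 20 were higher and 0 lower at an unadjusted p under 0.05 (7.24% and 5.96% of all genes), and 36 had a positive log2 change (53.4% of all genes). DESeq2 called 7 of them higher (0.829% of all genes): krt94, krt17, evpla, both DSP genes, anxa1c and icn. With library totals the median was 0.19 and that of all genes -0.46, and 4 genes still lay wholly above WT (2.32% of all genes), namely krt94, both DSP genes and anxa1c. Then 2 lay wholly below (30.5% of all genes), krt93 and the JUP gene ENSDARG00000059067.

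The keratin krt94 had the smallest unadjusted p for HET, followed by DSP ENSDARG00000076673. Levels of krt94 were 60.7, 92.8 and 80.6 CPM in HOM heads, 122, 105 and 109 CPM in HET heads, and 26.6, 60.3 and 36.1 CPM in WT heads. With TMM both HOM and HET lay above WT, and HET above HOM. With library totals HET still lay above WT, and HOM overlapped both. Its log2 change for HET was 1.45 (SE 0.32) and that of DSP ENSDARG00000076673 was 1.2 (SE 0.29), each with an adjusted p of 0.341 in edgeR. In krt17 HET had 1630, 925 and 1820 CPM and HOM 1240, 1330 and 1090 CPM, against 711, 314 and 403 CPM in WT heads.

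Between scn1lab HOM and HET, 2 members lay wholly above (anxa1c and KRT222) and 2 wholly below (anxa1b and krt94), against 4.98% and 2.92% of all genes. With library totals the same 2 lay above and 1 below, anxa1b (4.33% and 1.77% of all genes), while krt94 overlapped. In edgeR 0 members passed (0.00466% of all genes passed), with 3 higher and 1 lower at an unadjusted p under 0.05 (2.38% and 1.88% of all genes). For anxa1c the log2 change was 1.31 (SE 0.31, adjusted p = 0.945). DESeq2 called 1 member, anxa1b, at -2.3 (adjusted p = 6.36e-05; 0.121% of all genes were called lower). The median over the 43 genes was 0.14. It became 0.57 without scn1lab HET1, the HET library with the largest epidermal share, 0.33 without HET3, 0.26 without HOM3 and -0.03 without HET2, so its sign rests on HET2.

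In the dyrk1a line most of the same genes overlapped WT, and their levels varied between HOM heads. Over the members with counts in every library of a group, the highest library was a median 2.51 times the lowest in dyrk1a HOM. In dyrk1a HET and WT it was 1.46 and 1.36 times the lowest. HOM had 4 libraries against 3 in each of the others, which by itself tends to raise this ratio. For HOM against WT, 42 of the 43 genes were tested, krt18a.2 being too scarce, and 0 passed in edgeR (0% of all 21025 genes). DESeq2 called 0 of them as well (0.595% of all genes were called higher and 0.176% lower). At an unadjusted p under 0.05, 0 members were higher and 1 lower (4.54% and 3.26% of all genes). The median log2 change was 0.22 against 0.01 for all genes, and 29 of 42 were positive (51.1% of all genes). That median was 0.07 without dyrk1a HOM1, 0.05 without HOM2, 0.42 without HOM3 and 0.14 without WT4. No member lay wholly above WT and 1 lay wholly below (4.05% and 3.65% of all genes). With library totals 0 lay above and 2 below, KRT222 and cyt1l (3.77% and 3.6% of all genes).

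That gene was KRT222, with 20.1, 25, 26.3 and 26.5 CPM in dyrk1a HOM heads, 32.5, 23.2 and 33.7 CPM in HET heads, and 31.7, 36.7 and 38.2 CPM in WT heads. Its log2 change was -0.54 (SE 0.18, adjusted p = 0.564). The claudin cldnb came next by p, at 364, 375, 153 and 295 CPM in HOM heads, 298, 281 and 242 CPM in HET heads, and 224, 214 and 173 CPM in WT heads. One HOM library, HOM3, lay below all WT libraries of cldnb and the others above, with a log2 change of 0.54 (SE 0.27, adjusted p = 0.668).

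The most abundant keratins did not separate dyrk1a HOM from WT. For krt4 the levels were 20100, 19000, 7210 and 11800 CPM in HOM heads, 23400, 16000 and 14400 CPM in HET heads, and 15600, 15600 and 16500 CPM in WT heads. For krt5 they were 9480, 9580, 5260 and 7360 CPM in HOM heads, 10600, 7640 and 9990 CPM in HET heads, and 7820, 9140 and 7660 CPM in WT heads. HOM spanned WT in both, with log2 changes of -0.13 (SE 0.31) and -0.05 (SE 0.21). The library HOM3 was the lowest of the HOM group for 29 of the 43 members, krt4, krt5 and cyt1 among them. It held the smallest epidermal share of all 19 libraries, 2.47%, and the smallest skeletal muscle share, 0.604%.

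Keratins of the run of 7 neighbours also overlapped between dyrk1a HOM and WT with TMM. The exception with library totals was cyt1l, whose TMM-scaled levels were 476, 368, 195 and 279 CPM in HOM heads, 514, 529 and 273 CPM in HET heads, and 454, 450 and 475 CPM in WT heads. For cyt1l the log2 change was -0.48 with TMM and -0.56 with library totals, where HOM lay wholly below WT (adjusted p = 0.788 in edgeR). In dyrk1a, krt1-19e had 3530, 2440, 1620 and 6190 CPM in HOM heads, 5840, 3240 and 4620 CPM in HET heads, and 5150, 5090 and 5870 CPM in WT heads. For cyt1 the libraries held 835, 683, 350 and 1400 CPM in HOM heads, 1130, 762 and 870 CPM in HET heads, and 1180, 931 and 937 CPM in WT heads. HOM reached both above and below WT in these 2 genes, with log2 changes of -0.64 (SE 0.39) and -0.31 (SE 0.37).

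Levels of krt1-19d were 2550, 2180, 1040 and 758 CPM in HOM heads, 2060, 2350 and 926 CPM in HET heads, and 981, 1570 and 934 CPM in WT heads. Those of krt91 were 1490, 1320, 817 and 1380 CPM in HOM heads, 1520, 1530 and 1470 CPM in HET heads, and 1210, 1100 and 1280 CPM in WT heads. With TMM, HET of krt91 lay above WT while HOM overlapped it, and with library totals both overlapped WT. For krt17 they were 569, 706, 356 and 680 CPM in HOM heads, 520, 379 and 570 CPM in HET heads, and 609, 388 and 416 CPM in WT heads. The keratin krt1-c5, scarce in both lines, had 23.7, 20.3, 12.9 and 31.3 CPM in HOM heads, 15.5, 11.4 and 14.7 CPM in HET heads, and 24.9, 16.5 and 13.8 CPM in WT heads, and in scn1lab it had 40.5, 42.6 and 18.9 CPM in HOM heads, 27.5, 11.2 and 15.8 CPM in HET heads, and 26, 9.78 and 14.2 CPM in WT heads.

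Plakin and desmosome genes overlapped between dyrk1a HOM and WT in 9 of 9 cases. Most genes did so in this comparison, with 4.05% of all genes wholly above WT and 3.65% below. Envoplakin, evpla, had 78.7, 98, 37.7 and 84.1 CPM in HOM heads, 97.5, 63.3 and 64.9 CPM in HET heads, and 52.7, 57.7 and 44.3 CPM in WT heads. HET of evpla lay wholly above WT with TMM and overlapped it with library totals. Of its HOM libraries only HOM3 was not above WT. Periplakin, PPL, had 293, 379, 169 and 206 CPM in HOM heads, 431, 261 and 253 CPM in HET heads, and 219, 276 and 178 CPM in WT heads. Plakoglobin, JUP ENSDARG00000070787, had 155, 170, 97.4 and 89.4 CPM in HOM heads, 201, 152 and 139 CPM in HET heads, and 136, 137 and 115 CPM in WT heads. There HET lay above WT with TMM and overlapped it with library totals. The plakophilin pkp3a had 73, 87.5, 34.1 and 71.1 CPM in HOM heads, 90.5, 57.6 and 64.3 CPM in HET heads, and 50.9, 72.1 and 50.5 CPM in WT heads. Desmoplakin, DSP ENSDARG00000076673, had 7.13, 9.28, 6.9 and 6.33 CPM in HOM heads, 8.31, 3.57 and 8.15 CPM in HET heads, and 3.82, 6.53 and 3.2 CPM in WT heads, with a log2 change of 0.71 for HOM (SE 0.37, adjusted p = 0.687). The desmosomal cadherin dsc2l had 13.1, 16.6, 7.74 and 17.9 CPM in HOM heads, 8.1, 8.34 and 11.4 CPM in HET heads, and 13.7, 9.02 and 9.53 CPM in WT heads.

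Claudins, epcam and TP63 were likewise mixed in the dyrk1a line. The claudin cldni had 1080, 1180, 458 and 761 CPM in HOM heads, 1130, 987 and 735 CPM in HET heads, and 802, 738 and 690 CPM in WT heads, and cldne had 267, 259, 215 and 263 CPM in HOM heads, 260, 229 and 163 CPM in HET heads, and 252, 173 and 154 CPM in WT heads. For epcam the values were 395, 364, 143 and 277 CPM in HOM heads, 354, 349 and 220 CPM in HET heads, and 236, 213 and 192 CPM in WT heads, and for TP63 they were 121, 132, 53.1 and 106 CPM in HOM heads, 128, 131 and 114 CPM in HET heads, and 102, 117 and 71.7 CPM in WT heads. In each of these 4 genes HOM3 was the lowest of the HOM libraries, and the groups overlapped.

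The annexin A1 genes of the dyrk1a line overlapped between genotypes. For anxa1c the levels were 288, 268, 174 and 185 CPM in HOM heads, 292, 204 and 199 CPM in HET heads, and 241, 223 and 160 CPM in WT heads. For anxa1b they were 134, 96.7, 46.8 and 142 CPM in HOM heads, 98.3, 104 and 78.7 CPM in HET heads, and 90.1, 76.4 and 68.4 CPM in WT heads. Set against WT, HOM had a log2 change of 0.14 in anxa1c (SE 0.23, adjusted p = 0.949) and of 0.42 in anxa1b (SE 0.31, adjusted p = 0.81). ANXA1 had 338, 399, 120 and 364 CPM in HOM heads, 351, 286 and 352 CPM in HET heads, and 349, 338 and 242 CPM in WT heads, and anxa1d had 34, 29.6, 13.7 and 21.4 CPM in HOM heads, 23, 20 and 19.5 CPM in HET heads, and 20.2, 18.3 and 12.1 CPM in WT heads.

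Of the secreted and calcium-binding genes, icn2 had 631, 481, 119 and 910 CPM in HOM heads, 598, 448 and 447 CPM in HET heads, and 517, 300 and 346 CPM in WT heads in the dyrk1a line, and agr1 had 511, 480, 214 and 465 CPM in HOM heads, 435, 386 and 364 CPM in HET heads, and 569, 298 and 250 CPM in WT heads. Both overlapped between genotypes.

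In dyrk1a HET heads 9 members lay wholly above WT and 1 wholly below (6.17% and 5.95% of all genes), with a median of 0.28 against 0.01 for all genes (0.17 without dyrk1a HET2). In edgeR 0 passed (0% of all genes) and the lowest adjusted p was 1, with 1 member higher and 0 lower at an unadjusted p under 0.05 (2.02% and 1.31% of all genes). That member, krt94, had 150, 103, 26.7 and 68 CPM in HOM heads, 245, 204 and 141 CPM in HET heads, and 35, 30.7 and 79.1 CPM in WT heads. All HET libraries lay above WT, a log2 change of 2.03 (SE 0.6), and DESeq2 called it (adjusted p = 0.0473) as the only member (0.0761% of all genes were called higher). The next by p was icn, with 582, 579, 180 and 416 CPM in HOM heads, 543, 623 and 450 CPM in HET heads, and 294, 373 and 312 CPM in WT heads, a log2 change of 0.72 for HET (SE 0.36). With library totals 4 members lay above WT, krt18a.1, krt15, krt94 and icn, and 2 below (3.02% and 11.6% of all genes).

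Between dyrk1a HOM and HET no member's groups were separate (4.07% of all genes lay above and 2.89% below). In edgeR 0 of 42 passed (0% of all genes), and 0 were past an unadjusted p of 0.05 in either direction (3.92% of all genes were higher and 2.68% lower). DESeq2 called 0 members (0.614% of all genes were called higher and 0.133% lower). The smallest p-values were those of krt94, at a log2 change of -1.18 (SE 0.53, adjusted p = 0.763), and krt1-c5, at 0.66 (SE 0.31, adjusted p = 0.764). The median over the members was -0.15. It was -0.24 without HOM1 or without HET4, -0.3 without HOM2, -0.08 without HET2 and 0.04 without HOM3, so its sign rests on HOM3.

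The lines differed in the HOM effect on 1 member, anxa1c. The difference between the lines, the log2 change in dyrk1a minus that in scn1lab, was tested in a fit of all 19 libraries over 22488 genes. It was -2.42 for anxa1c (SE 0.38, adjusted p = 0.0286 in edgeR's quasi-likelihood test), so the excess of HOM over WT was smaller in dyrk1a. This was 1 of 43 members called lower and 0 called higher (0.00445% and 0.0222% of all genes, 0.0267% in either direction). The call was made in 12 of 29 fits, with values from -2.68 to -2.06. It was lost with library totals (-2.06, adjusted p = 0.113), with the replicate numbers as a block (-2.35, adjusted p = 0.259), and once the libraries with over 2% digestive counts were taken out (-2.64, adjusted p = 0.0962), where scn1lab HOM was 1 library. When 1 library was left out it held without scn1lab HOM3, HET1, HET2 or HET3 or dyrk1a HOM1, and was lost without any other, with an adjusted p of at most 0.175.

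DESeq2 called 3 members lower in dyrk1a than in scn1lab by this difference (0.525% of all genes): anxa1c, KRT222 and cyt1l. KRT222 came next by p in edgeR, at -1.6 (SE 0.31, adjusted p = 0.147), and anxa1b had 1.57 (SE 0.48, adjusted p = 0.341). Over the 43 members the median difference was -0.78, against -0.04 for all genes. Of the members 5 were positive (48.1% of all genes) and 38 negative. At an unadjusted p under 0.05, 1 member was higher and 8 were lower (5.52% and 5.27% of all genes). For the HET effect 0 members passed in edgeR (0.00445% of all genes passed). DESeq2 called 0 members too (0.289% of all genes were called higher and 0.12% lower). At an unadjusted p under 0.05, 0 were higher and 3 lower (2.86% and 3.26% of all genes), and the median difference was -0.58 against -0.01. It was -0.22 without scn1lab HET1 and -0.32 without scn1lab HET3. The smallest p-values there belonged to krt17, at -1.58 (SE 0.47), and the desmosomal cadherin dsc2l, at -1.56 (SE 0.48), each with an adjusted p of 0.806.

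Lists of other skin genes, none of them among the 43, were read alongside in scn1lab HOM against WT. Of 44 further epidermal genes, 42 were tested, 24 lay wholly above WT and 1 below (18.3% and 18.2% of all genes), and with library totals 5 lay above and 1 below (5.15% and 30.2% of all genes). Their median log2 change was 0.94 (0.52 with library totals), and 0 passed in edgeR (0.00466% of all genes). At an unadjusted p under 0.05, 21 were higher and 0 lower (9.8% and 9.1% of all genes). DESeq2 called 7 higher and 0 lower (3.58% and 3.75% of all genes). The first by p were CAPN9, a calpain, at 1.71 (SE 0.31, adjusted p = 0.144), ELOVL7, a fatty acid elongase, at 1.36 (SE 0.29, adjusted p = 0.156), and ELF3, an epithelial transcription factor, at 2.59 (SE 0.61, adjusted p = 0.156). ELF3 had 339, 231 and 87.1 CPM in HOM heads, 118, 50.6 and 26.1 CPM in HET heads, and 42, 35 and 32.2 CPM in WT heads. Its HOM libraries lay above all WT libraries.

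Regulators of the grainyhead and klf kind and their partners had 5 of 15 above WT and 0 below, with a median of 0.79 (0.38 with library totals). Hemidesmosome and basement membrane genes, which anchor the basal layer, had 6 of 19 above and 1 below, with a median of 0.45 (0.02 with library totals). Mucous cell and ionocyte genes had 4 of 21 above and 2 below, with a median of 0.66 (0.15 with library totals). With library totals the regulators had 0 above and 0 below, and the hemidesmosome list and the mucous cell and ionocyte list each had 0 above and 2 below. Of all genes 5.15% then lay above and 30.2% below. With TMM 18.3% of all genes lay above WT and 18.2% below. The share of mucous cell and ionocyte genes above WT with TMM was near that of all genes. In each of these 3 lists 0 genes passed in edgeR. At an unadjusted p under 0.05, 3 regulators were higher and 0 lower, and 4 hemidesmosome genes were higher and 1 lower. Of the mucous cell and ionocyte genes 5 were higher and 2 lower by the same measure. Among all genes 9.8% were higher and 9.1% lower. DESeq2 called 1 regulator higher, 1 hemidesmosome gene higher and 1 mucous cell or ionocyte gene lower. Of all genes it called 3.58% higher and 3.75% lower.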

How the data were processed

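Each library holds total RNA of 1 larval zebrafish head without eyes, made with a low-input kit, per the labels' protocols. The authors deposited raw counts per gene ID, whole numbers with no scaling. The submitters' processing notes name Trim Galore 0.5.0, HISAT2 2.1.0, StringTie 1.3.3b, DESeq2 1.22.1 and GRCz11 without roles; how reads that fit several genes were counted is not given in the sources used here. Counts were not read by strand as far as these sources say.

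Symbols came from a supplied gene table that names 28975 of the 32020 IDs. After filterByExpr and TMM scaling, genes were tested with edgeR 4.0.16 (robust quasi-likelihood, two-sided; R 4.3.3), with 1 fit for the 9 scn1lab libraries, 1 for the 10 dyrk1a libraries and 1 for all 19. P-values were adjusted by Benjamini-Hochberg over all genes tested, with a threshold of 0.05. SE was worked back from the F statistic and the log2 change. HOM and HET share the WT libraries of their line. A 95% Wilson interval of a share reaches at most 0.0122 percentage points to either side. Intervals and the floor of 3 counts cover counting error only. The labels do not say that larvae of a group came from separate clutches, so p-values measure the spread between these heads. The scripts were tested on simulated counts.

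Alternatives were DESeq2 1.42.0, other scalings, no low-count filter, only the groups compared, a replicate block, a digestive covariate, leaving out the libraries with a digestive share above 2%, and leaving out each library in turn. Library totals as the only scaling, and removal of the digestive list, were chosen after seeing the data. Replicates were compared with each other and none was a duplicate.

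The members and lists were chosen with earlier results of these data known. Values in every library are given for the up to 4 members of a role (up to 6 keratins) with the highest mean CPM, for every member called, and for the 2 with the smallest p in each comparison. Further members given in full, among them DSP, JUP, dsc2l, PKP1, KRT222, krt15, krt8, krt17 and krt18a.2, and the ratios within a library, were chosen after their values were seen. Of other lists, at most 3 genes by p are named. A gene of the regulator list is not reported here. Coordinates are not given, since the supplied annotation (GRCz12tu) is of another build than the counts. It was used only for which genes neighbour each other, over 37 members matched by symbol.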

Additional observations from a re-analysis of the deposited data

Results flagged for a closer look

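A library stood apart from the other libraries of its group in dyrk1a HOM for 2 members, and both times it was HOM3. For cldne it had 215 CPM against 259 to 267 CPM in the other HOM libraries, a gap of 0.852 of the group's whole range. For agr1 it had 214 CPM against 465 to 511 CPM, a gap of 0.844. The critical value for 4 libraries is 0.829, and 29 genes and shares were looked at in this way. Chance flags about 1 in 20 groups. Both flags were made on TMM-scaled CPM. With library totals cldne had 253, 266, 244 and 241 counts per 1 M in HOM1, HOM2, HOM3 and HOM5, so HOM3 was not the lowest. For agr1 the same libraries had 484, 492, 244 and 426 counts per 1 M, with HOM3 still the lowest but closer to HOM5. HOM3 also held the smallest epidermal share of counts in the study, 2.47%, and its part in these values was not tested.

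The effect of the HOM genotype on anxa1c differed between the lines by a test of the difference itself, at -2.42 on the log2 scale (dyrk1a minus scn1lab, SE 0.38, adjusted p = 0.0286 in edgeR). It passed in 12 of 29 fits, and the call was lost with library totals (adjusted p = 0.113), with the replicate block (adjusted p = 0.259) and in most of the fits that left out 1 library. All 3 scn1lab HOM libraries lay above scn1lab WT, while dyrk1a HOM overlapped dyrk1a WT.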

How the results depend on the processing

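For each of the 8 comparisons the 2 members with the smallest p were followed through the alternatives. None of these 16 changes turned in sign, but they were picked from these data by their p. Over all members, library totals turned the sign of 7 genes for scn1lab HOM against WT. For scn1lab HET against WT they turned 8, krt4 among them. Counts of members called moved most. For scn1lab HOM against WT the count was 0, but 13 with DESeq2 and 20 with only the groups compared, and it ran from 0 to 1 when 1 library was left out. DESeq2 called 7 for scn1lab HET against WT, 1 for scn1lab HOM against HET and 1 for dyrk1a HET against WT, where edgeR called 0. For the HOM effect set against the other line the count of 1 became 3 with DESeq2 and 2 with only the groups compared. It became 0 with library totals, with the replicate block and after leaving out libraries above 2% digestive counts, which leaves 1 scn1lab HOM library, and ran from 0 to 2 when 1 library was left out. Medians moved with library totals, to 0.5 for scn1lab HOM against WT and 0.19 for HET against WT, and with 1 library left out the median for scn1lab HOM against HET ran from -0.03 to 0.57, below 0 without HET2. That for dyrk1a HOM against HET, -0.15, became 0.04 without HOM3. The epidermal share in dyrk1a WT was 4% without the genes shared with simple epithelia, against 4.28%. Leaving genes out of a share lowers it by definition. With library totals the median over all genes moved too, by -0.46 for scn1lab HOM against WT and -0.53 for HET against WT. The cause of the other shifts was not tested.

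Correlations between same-numbered libraries ran from -0.401 to 0.14 over 9 pairs in scn1lab and from -0.182 to 0.289 over 6 pairs in dyrk1a. In these lines 2 of 9 and 3 of 9 libraries correlated best with their own number. So few pairs cannot settle whether the replicate numbers pair the samples. With the block 0 members were called in all 8 comparisons. Depth did not limit the abundant keratins, whereas krt18a.2, krt95 and krt93 had libraries at 0.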

Other observations

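Other tissues of the head gave these values for scn1lab HOM against WT, where 0 genes of each list passed in edgeR. Of all genes 18.3% lay wholly above WT and 18.2% below, and with library totals 5.15% lay above and 30.2% below. At an unadjusted p under 0.05, 9.8% of all genes were higher and 9.1% lower. DESeq2 called 3.58% of all genes higher and 3.75% lower. These shares apply to every list below. Of the pigment cell genes, 8 of 19 lay wholly above WT and 0 below, with a median log2 change of 1.02, and 8 were higher and 2 lower at an unadjusted p under 0.05. Their summed share was 0.111% to 0.168% of counts in HOM, 0.0221% to 0.0533% in HET and 0.0375% to 0.0485% in WT. DESeq2 called 5 of them higher, and with library totals 6 lay above and 5 below. Of the neutrophil genes 3 of 5 lay above WT (4 higher and 0 lower by unadjusted p), and of the macrophage and microglia genes 5 of 17 (3 higher and 0 lower). DESeq2 called 0 and 3 of these. With library totals 1 neutrophil gene lay above and 0 below, and 3 macrophage and microglia genes above and 1 below.

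Cartilage and bone genes had 1 of 33 above and 13 below, with a median of -0.33, and DESeq2 called 4 of them lower (0 above and 16 below with library totals). Of the neuron genes 23 of 26 lay wholly below WT, with a median of -1.53, with 17 lower and 0 higher at an unadjusted p under 0.05, and 9 called lower by DESeq2 (25 below with library totals). Skeletal muscle genes had 0 of 21 above or below, with a median of 0.06 (3 below with library totals). Gut and pharynx epithelium outside the 43 genes had 0 of 13 above and 1 below, with a median of 0.79 (2 below with library totals). Digestive organ genes had 12 of 46 above and 0 below, with a median of 4.71, the same counts with library totals, 20 higher and 0 lower by unadjusted p, and 18 called higher by DESeq2. The medians were 0.69 for erythrocyte, 4.32 for lens and -3.73 for photoreceptor genes, with 0 genes of these lists wholly above or below WT under either scaling. By unadjusted p 0 erythrocyte genes passed, 7 lens genes were higher and 17 photoreceptor genes lower, and DESeq2 called 0, 5 higher and 12 lower in these lists. The lens list took 0.000396%, 0.0939% and 0.00634% of counts in HOM1, HOM2 and HOM3, against 0.000891% to 0.00835% in WT. Only HOM2 thus stood above WT. The photoreceptor list took 0.015%, 1.09% and 0.848% in WT1, WT2 and WT3, against 0.0123% to 0.096% in HOM. WT1 thus lay within the HOM range.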
